A study of Homo sapiens with 8 samples.

Results

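Tight junctions seal the space between neighbouring epithelial cells near their apical side. Claudins form the sealing strands between the cells. Occludin and tricellulin belong to the MARVEL family and sit in or between these strands, and junctional adhesion molecule A helps to place them. Cytoplasmic scaffolds of the zonula occludens family and the linker cingulin tie the strands to actin. In epithelial tumours, claudin and occludin genes are known targets of the repressors that drive the epithelial to mesenchymal transition.

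The genes described are 10 of the 48405 rows in each deposited table. They are CLDN1, CLDN3, CLDN4 and CLDN7 (claudins), OCLN (occludin) and MARVELD2 (tricellulin), F11R (junctional adhesion molecule A), TJP1 and TJP3 (zonula occludens scaffolds) and CGN (cingulin). They were chosen by symbol, and each symbol stood on 1 row. Polyadenylated RNA was measured in HCC827 and HCC4006, established cell lines from human lung adenocarcinomas in which EGFR carries an activating mutation. The resistant cultures of each line could be carried in medium with 3 µM gefitinib, an inhibitor of the EGFR kinase, and the control cultures of each line were carried in DMSO, the solvent. Each line thus gave a resistant and a DMSO group with 2 libraries each, 8 in all. The labels call the resistant cells populations, not clones, and name gefitinib for them alone, so effects of resistance and of drug still present cannot be told apart. No label gives separate cultures for the libraries within a group, so the spread behind each p-value may be technical.

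Levels are FPKM, fragment counts scaled by the authors to transcript length and library size, in 1 table per line. Each library had between 17406 and 19333 rows above 0, whose median was 53.6 to 59.0 FPKM. That is high for FPKM, so the authors may have applied another scale factor, which within a table would not alter ratios except through the pseudocount. Depth is unknown. The share of the FPKM sum in the 10 highest rows was 15.6% for HCC4006 DMSO library A and at most 10.3% for the others. A value of 0 can be a failed estimate in these tables, so a gene at 0 in both libraries of a group is given as listed at 0, with no fold change. Defining markers of other cells, CDH5 of endothelium, PTPRC and CD3E of blood cells, and COL3A1 and THY1 of fibroblasts, were listed at 0 in all 8 libraries. Of the whole lists, 5 endothelial markers summed to between 3.61 and 68.2 FPKM, 7 fibroblast markers to between 13.4 and 122 FPKM, and 5 immune markers to between 264 and 1126 FPKM, nearly all of it CD68, a lysosomal gene that epithelial cells can also express. Besides CD68, the markers above 0 in every library were COL1A1, a collagen gene at 13.4 to 119.8 FPKM, and ESAM, an endothelial adhesion gene at 3.61 to 64.7 FPKM. KDR of endothelium measured 4.08 and 3.71 FPKM in the resistant HCC4006 libraries, against 0.522 and 1.42 FPKM in the DMSO libraries, and 0 in HCC827. COL1A2, DCN, LUM, VWF, TEK, CD14 and LYZ were above 0 in some libraries, at no more than 3.90 FPKM. PDGFRB, a fibroblast marker whose row also names AC005895.3, measured 21.9 and 26.2 FPKM in the resistant HCC4006 libraries, against 2.57 and 0.764 FPKM in the DMSO libraries, and 0 in HCC827. It was thus higher where tight junction genes were lower, and its part in the results was not tested.

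In resistant HCC4006, CLDN7, OCLN, MARVELD2, F11R and TJP3 passed the test as lower, while CLDN1, CLDN3 and TJP1 did not pass it. Fitted over rows above 0 in every library, CLDN7 and MARVELD2 alone of these passed. The F11R row also names TSTD1. In HCC827, none of the 8 genes without a group at 0 passed the test. CLDN7, MARVELD2, F11R and TJP3 changed differently in the lines by a test of the difference itself. F11R did not pass that test over rows above 0. The plot of levels by library shows all values.

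**Figure D1:**
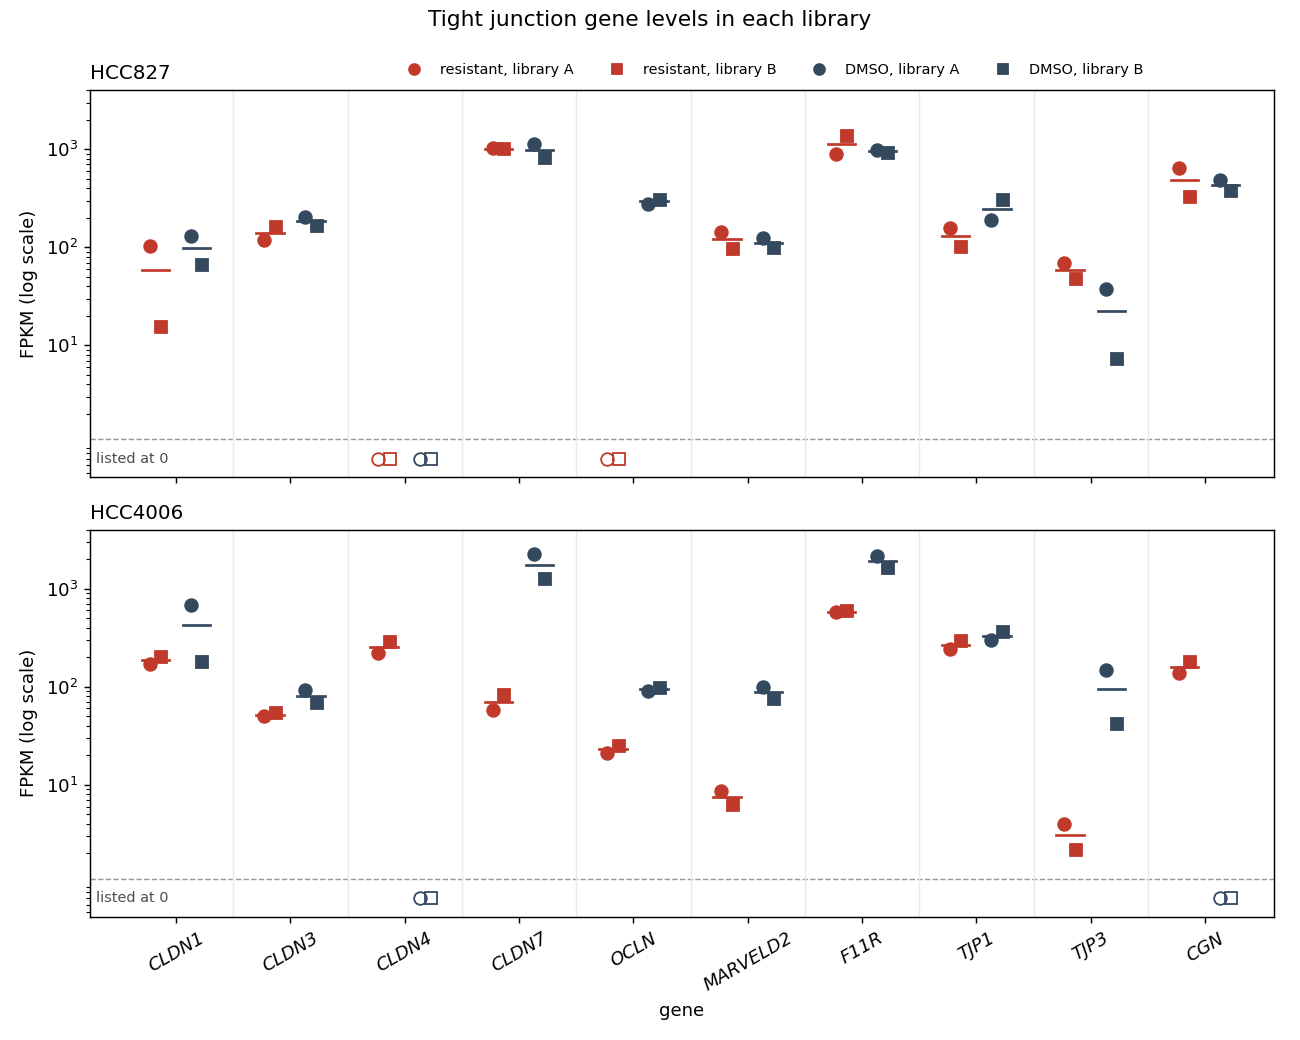
FPKM of the 10 genes in each library on a log axis, with HCC827 above and HCC4006 below, resistant libraries in red and DMSO libraries in dark blue. Short lines are means of the libraries above 0, and open symbols under the dashed line are values listed at 0, off the scale. In HCC4006, CLDN7 measured 57.8 and 81.8 FPKM in the resistant libraries, against 2242 and 1261 FPKM in the DMSO libraries.

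Among the claudins with no group at 0, CLDN7 was the one that passed the test in HCC4006. CLDN7 (hg19 chromosome 17, 7155371 to 7166519), a sealing claudin of most epithelia, measured 57.8 and 81.8 FPKM in the resistant HCC4006 libraries, against 2242 and 1261 FPKM in the DMSO libraries. Both resistant libraries lay far below both DMSO libraries, a mean of 69.8 ± 16.97 against 1751 ± 694 FPKM (SD, n = 2 each). The log2 fold change was −4.60 (SE 0.39), with an adjusted p = 0.00815 in limma. Each fold change is the mean log2(FPKM + 0.5) of the resistant libraries minus that of the DMSO libraries, a scale on which low genes seem to change less, and a gene was called at a Benjamini-Hochberg adjusted p below 0.05 over all rows fitted. By rank, CLDN7 stood at the 50.8th and 57.4th percentile of rows above 0 in the resistant libraries, against the 98.0th and 95.6th in the DMSO libraries. C17orf81, the other row on its locus, measured 202 and 222 FPKM in the resistant libraries, against 183 and 206 FPKM in the DMSO libraries.

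The CLDN7 promoter is shown because CLDN7 and TJP3 had the largest falls among the 8 genes with no group at 0. Which of them fell more depended on the scale. The log2 change was −4.60 for CLDN7 and −4.53 for TJP3, but −4.61 and −4.70 with a pseudocount of 0.1, and −4.60 and −4.97 with quantile normalization. RefSeq windows on GRCh38.p14, a later build than the hg19 of the tables, were searched from 250 bases before to 50 bases after each annotated start. The motif CACCTG is a form of the E-box that ZEB and SNAI repressors bind, and its reverse complement CAGGTG was searched too. The upstream of the 2 annotated CLDN7 starts held 0 matches and the downstream one held 5. Only 33 of 35116 windows (0.094%) in the table held at least that many, while 20.6% held at least 1. That count was the most in any of the 15 windows of these genes, and the 0.094% does not allow for this choice. The 250 bases before that start, on the minus strand (chr17:7262479-7262728), have the matches in capitals. The last match lies 6 to 11 bases past the start, outside the printed stretch.
CLDN7: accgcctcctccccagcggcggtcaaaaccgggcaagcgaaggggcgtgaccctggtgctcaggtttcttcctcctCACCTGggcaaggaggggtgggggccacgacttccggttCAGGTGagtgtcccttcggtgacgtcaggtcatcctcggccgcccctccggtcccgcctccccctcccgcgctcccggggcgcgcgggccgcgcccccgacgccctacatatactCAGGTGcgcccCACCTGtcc

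CLDN1 (chromosome 3, 190023489 to 190040264), a claudin whose loss in mice opens the skin barrier, measured 171 and 203 FPKM in the resistant HCC4006 libraries, against 680.3 and 181 FPKM in the DMSO libraries. The groups overlapped, and DMSO library A alone was high. The log2 fold change was −0.91 (SE 0.72, adjusted p = 0.518). CLDN3 (chromosome 7, 73183327 to 73184600), another sealing claudin, measured 49.9 and 53.4 FPKM in the resistant libraries, against 92.8 and 68.1 FPKM in the DMSO libraries. The groups did not overlap, but the change of −0.62 (SE 0.25) had an adjusted p = 0.271. CLDN4 (chromosome 7, 73213871 to 73247014), whose row also names AC093168.1, measured 222 and 284 FPKM in the resistant libraries and was listed at 0 in both DMSO libraries. The signal of that row cannot be assigned to CLDN4 alone.

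The makeup of the sum of CLDN1, CLDN3 and CLDN7, the claudins among the 10 genes that lay above 0 in every library, is given as a description. CLDN7 gave 20.8% and 24.2% of the summed FPKM of CLDN1, CLDN3 and CLDN7 in the resistant HCC4006 libraries, against 74.4% and 83.5% in the DMSO libraries. CLDN1 gave 61.3% and 59.98% in the resistant libraries, against 22.6% and 11.97% in the DMSO libraries. The sum itself was 278 and 338 FPKM in the resistant libraries, against 3015 and 1510 FPKM in the DMSO libraries. The larger CLDN1 share thus stands in a smaller sum, with CLDN1 itself not higher. CLDN4 is not in this sum because it was listed at 0 in the other groups. At 222 and 284 FPKM in the resistant HCC4006 libraries, its row, which also names AC093168.1, lay above CLDN1 at 171 and 203 FPKM. The shares thus do not rank CLDN1 among all claudins.

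**Figure D2:**
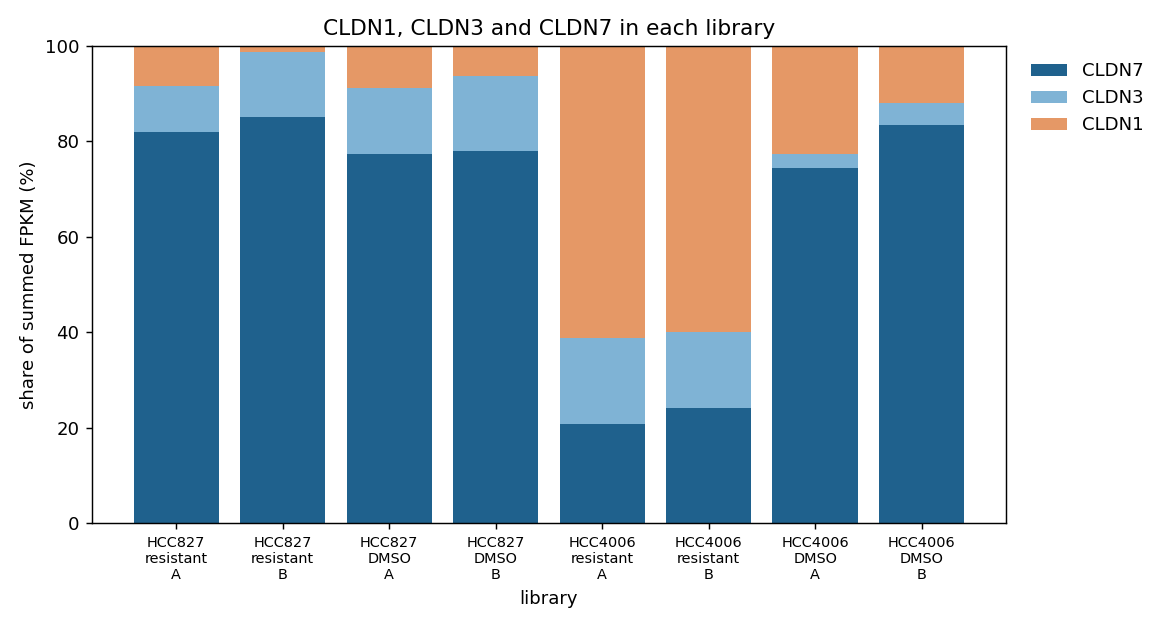
Share of the summed FPKM of CLDN1, CLDN3 and CLDN7 in each library, as percent, with CLDN7 at the base of each bar. CLDN4, whose row also names another gene and lay above CLDN1 in resistant HCC4006, is not included. CLDN7 gave 20.8% and 24.2% in resistant HCC4006, and at least 74.4% in each other library.

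Both MARVEL genes fell in resistant HCC4006. OCLN (chromosome 5, 68773298 to 69006341), whose protein occludin lies in the strands, measured 21.3 and 25.1 FPKM in the resistant libraries, against 90.4 and 98.2 FPKM in the DMSO libraries. The values within each group were close, and the log2 change was −2.004 (SE 0.22, adjusted p = 0.016). MARVELD2 (chromosome 5, 68710938 to 68740157) encodes tricellulin, which seals the points where 3 cells meet. It measured 8.59 and 6.27 FPKM in the resistant libraries, against 99.7 and 75.5 FPKM in the DMSO libraries. This was a mean 11.8-fold lower with a log2 change of −3.48 (SE 0.30, adjusted p = 0.00809). OCLN shares its wide locus with 9 other rows, and part of its sequence has a copy nearby in the genome, so its values are uncertain. GTF2H2C, on the same locus and named after its values were seen, measured 77.4 and 65.6 FPKM in the resistant libraries, against 122 and 88.4 FPKM in the DMSO libraries.

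These genes are neighbours on chromosome 5, and their promoters are shown to compare genes that fell alongside CLDN7. The downstream of the 2 annotated OCLN starts held 2 E-box matches, 1 of them past the start, and the upstream one held 1. The MARVELD2 window held 0. The stretches before the starts lie on the plus strand at chr5:69492540-69492789 for OCLN and chr5:69414866-69415115 for MARVELD2, with the match in capitals.
OCLN: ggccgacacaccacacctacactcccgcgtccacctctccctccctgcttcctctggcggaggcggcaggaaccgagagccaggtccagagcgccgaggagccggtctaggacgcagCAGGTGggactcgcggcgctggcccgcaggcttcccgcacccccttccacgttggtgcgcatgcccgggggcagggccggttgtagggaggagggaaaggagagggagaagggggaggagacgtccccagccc
MARVELD2: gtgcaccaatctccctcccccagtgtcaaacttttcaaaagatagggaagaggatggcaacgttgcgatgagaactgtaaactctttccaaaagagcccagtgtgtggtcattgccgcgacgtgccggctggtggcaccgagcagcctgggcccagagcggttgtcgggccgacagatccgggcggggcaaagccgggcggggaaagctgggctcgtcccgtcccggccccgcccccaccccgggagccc

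F11R (chromosome 1, 160965000 to 161008780), whose row also names TSTD1, measured 577 and 586 FPKM in the resistant HCC4006 libraries, against 2180 and 1619 FPKM in the DMSO libraries. Its signal cannot be assigned to 1 of these genes. Both resistant libraries were lower, and the log2 change was −1.69 (SE 0.23, adjusted p = 0.0314). It stayed at the 90.8th and 91.0th percentile of rows above 0 there, against the 98.0th and 96.8th in DMSO.

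The scaffold genes parted. TJP3 (chromosome 19, 3490819 to 3772221), which encodes ZO-3, a scaffold found mainly in epithelia, measured 3.96 and 2.15 FPKM in the resistant HCC4006 libraries, against 147 and 42.1 FPKM in the DMSO libraries. The DMSO libraries differed widely but both lay above both resistant libraries, and the log2 change was −4.53 (SE 0.74, adjusted p = 0.0479). TJP1 (chromosome 15, 29991570 to 30248497), which encodes ZO-1, a scaffold of epithelial and other junctions, measured 242 and 292 FPKM in the resistant libraries, against 300 and 366 FPKM in the DMSO libraries. The groups did not overlap but lay close together, and the change of −0.31 (SE 0.23) had an adjusted p = 0.504. CGN (chromosome 1, 151482985 to 151511168), the linker gene, measured 139 and 177 FPKM in the resistant libraries and was listed at 0 in both DMSO libraries. TJP3 shares its locus with 15 other rows. Of these, MRPL54, C19orf29, C19orf71 and GIPC3 were also lower in both resistant HCC4006 libraries than in both DMSO libraries. In HCC4006, 28.3% of rows above 0 in every library were lower in this way. MRPL54 measured 212 and 163 FPKM in the resistant libraries, against 383 and 385 FPKM in the DMSO libraries. HMG20B, the highest row there, overlapped at 521 and 770.3 FPKM in the resistant libraries, against 815 and 596 FPKM in the DMSO libraries. These neighbours were chosen after their values were seen.

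The promoter before the downstream of the 2 annotated TJP3 starts, on the plus strand at chr19:3721487-3721736, held 1 E-box match close to the start, in capitals. The window of the upstream start held 0.
TJP3: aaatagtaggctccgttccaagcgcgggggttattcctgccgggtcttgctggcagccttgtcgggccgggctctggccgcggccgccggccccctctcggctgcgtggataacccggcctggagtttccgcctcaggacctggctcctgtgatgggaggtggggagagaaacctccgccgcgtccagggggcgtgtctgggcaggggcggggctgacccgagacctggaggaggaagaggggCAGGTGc

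Of the 10 genes, 9 had windows in the table, 15 windows in all. F11R, which fell in HCC4006, had none. For CLDN7, OCLN and TJP3, the stretch printed is that of the start with more matches. E-box matches were in 6 of the 15 (40.0%, against 20.6% of all windows), at CLDN3, CLDN7, OCLN, TJP1 and TJP3. CLDN3 and TJP1 did not pass the test in either line, and MARVELD2, which fell, held no match. The motif AACCNGTT, of grainyhead-like factors that act in epithelia, and its reverse complement AACNGGTT were in 1 window, that of CGN, and in 1.73% of all windows. A match is a description of letters and not a bound site, and no overlap between the motifs was found.

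**Figure D3:**
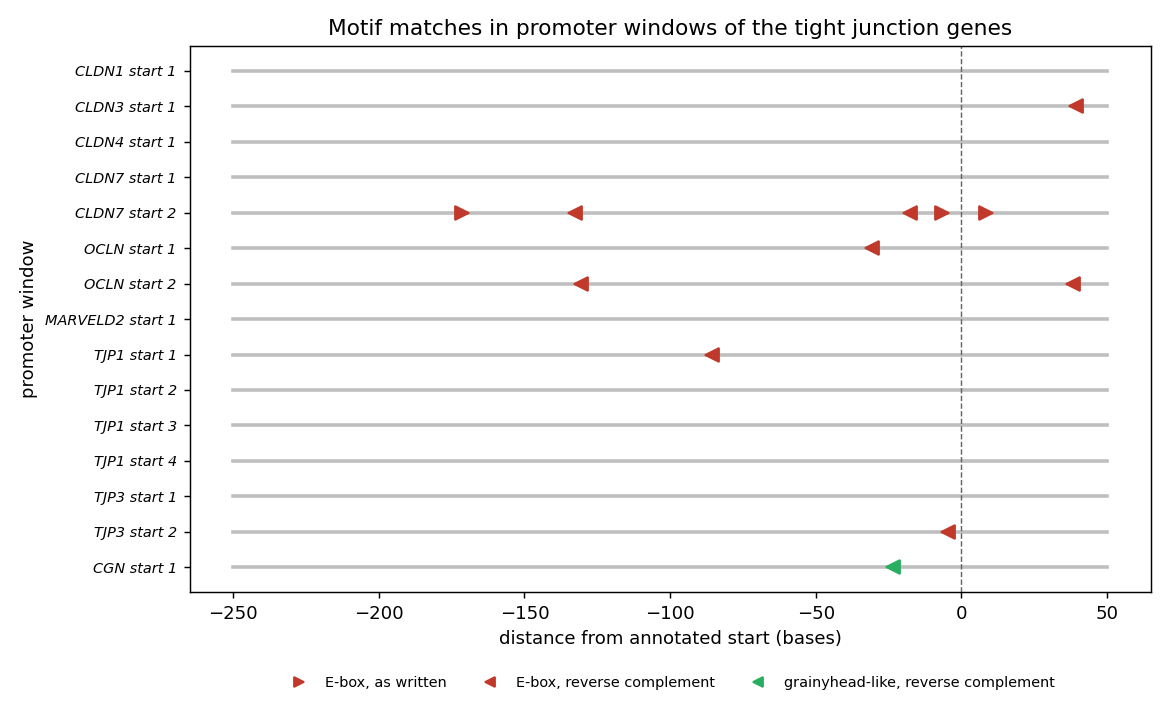
Motif matches in the 15 promoter windows, by distance from the annotated start in bases. Triangles mark matches as written (pointing right) or as the reverse complement (pointing left), red for the E-box and green for the grainyhead-like motif. The 5 matches at the second CLDN7 start are the most in a window shown.

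In all, 7 of the 10 genes were called in HCC4006, where 9.36% of the 19881 rows fitted were called. Of these, 5 were lower in the resistant libraries, as were 2.98% of rows. The 2 called higher were CLDN4 and CGN, each with DMSO listed at 0, where 6.37% of rows were called higher. Over the 8 genes with no group at 0, all changes were negative, with a median of −1.85, against −0.01 over all rows fitted. The groups did not overlap for 7 of these 8, lower in the resistant libraries, as for 28.3% of rows above 0 in every library. Fitted over rows above 0 in every library, 2 of 8 were called lower, CLDN7 (adjusted p = 0.0378) and MARVELD2 (0.0491), where 0.431% of 16484 rows were called lower and 0.534% in either direction. OCLN (adjusted p = 0.075), F11R (0.0784) and TJP3 (0.0815) were not called in that limma fit. Epithelial markers moved with these genes. The 5 found of EPCAM, CDH1, KRT8, KRT18, KRT19 and NKX2-1 summed to between 1629 and 1802 FPKM in the resistant HCC4006 libraries, against between 9503 and 15840 FPKM in the DMSO libraries. Their part in the result was not tested. In bulk samples, fewer cells of a type and less RNA per cell cannot be told apart.

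Fits with 1 library removed take the spread from the group that still has 2 and assume that the single library varies like it. Removing resistant library A ended the call of CLDN7 (adjusted p = 0.247) and F11R (0.366), as did removing resistant library B (0.221 for CLDN7 and 0.368 for F11R). MARVELD2 was not called without DMSO A (adjusted p = 0.0597), resistant A (0.152) or resistant B (0.18). OCLN and TJP3 lost the call with any of the 4 removed. For OCLN the adjusted p was 0.061 and 0.0558 with DMSO A and B removed, and 0.198 and 0.172 with resistant A and B removed. For TJP3 it was 0.0874 and 0.0525 with DMSO A and B removed, and 0.432 and 0.489 with resistant A and B removed. All 5 kept a negative fold change in each of these fits. These fits also estimate the spread from fewer libraries.

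In HCC827, CLDN1, CLDN3 and CLDN7 did not pass the test. CLDN7 measured 1020.5 and 1012 FPKM in the resistant libraries, against 1144 and 817 FPKM in the DMSO libraries. The resistant values lay within the DMSO range, and the log2 fold change was 0.07 (SE 0.31, adjusted p = 0.931), a value of −0.001 with quantile normalization. CLDN3 measured 119.8 and 163 FPKM in the resistant libraries, against 203 and 164 FPKM in the DMSO libraries. The change of −0.38 (SE 0.32) had an adjusted p = 0.571. CLDN1 measured 103 and 15.5 FPKM in the resistant libraries, against 131 and 66.2 FPKM in the DMSO libraries. The groups overlapped, with library B low in each, and the change of −1.20 (SE 0.99) had an adjusted p = 0.569. CLDN4 was listed at 0 in all 4 libraries of this line. CLDN7 gave 82.1% and 85.0% of the summed FPKM of CLDN1, CLDN3 and CLDN7 in the resistant libraries, against 77.4% and 78.0% in the DMSO libraries.

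MARVELD2 measured 144 and 96.9 FPKM in the resistant HCC827 libraries, against 124 and 97.3 FPKM in the DMSO libraries. The groups overlapped, and the log2 change was 0.10 (SE 0.35, adjusted p = 0.907). OCLN was listed at 0 in both resistant libraries and measured 280 and 307 FPKM in the DMSO libraries. On the same locus, GTF2H2C was also listed at 0 in both resistant libraries and measured 178 and 198 FPKM in the DMSO libraries. All 10 rows of that locus were at 0 in both resistant HCC827 libraries, and no direction is drawn for OCLN from this.

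F11R measured 903 and 1378 FPKM in the resistant HCC827 libraries, against 986 and 927 FPKM in the DMSO libraries, a change of 0.22 (SE 0.33, adjusted p = 0.76). The resistant libraries lay on either side of the DMSO ones. TJP1 measured 157 and 101 FPKM in the resistant libraries, against 190.1 and 303 FPKM in the DMSO libraries. Both resistant libraries were lower, but the change of −0.93 (SE 0.40) had an adjusted p = 0.333. TJP3 measured 69.6 and 47.4 FPKM in the resistant libraries, against 37.4 and 7.25 FPKM in the DMSO libraries. Both resistant libraries were higher, but the change of 1.76 (SE 0.83) had an adjusted p = 0.368. CGN measured 647 and 327 FPKM in the resistant libraries, against 490.0 and 376 FPKM in the DMSO libraries, and its groups overlapped (0.10, SE 0.43, adjusted p = 0.932).

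Of the 9 genes fitted in HCC827, 0 were called higher and 1 lower, OCLN with its resistant group at 0. Of 19324 rows, 6.8% were called, 1.67% lower and 5.13% higher. Of the 8 with no group at 0, 3 had negative and 5 positive changes, with a median of 0.09, against −0.04 over all rows. None of these 8 had an unadjusted p below 0.05 in that limma fit, and 1 had in the fit over rows above 0 in every library, which called 0 of them and 0.119% of all its rows. The groups did not overlap for 3 of the 8. CLDN3 and TJP1 were lower in both resistant libraries, as were 26.3% of rows above 0 in every library, and TJP3 was higher, as were 20.2%. The epithelial markers summed to 10500 and 17490 FPKM in the resistant HCC827 libraries, against 16040 and 15140 FPKM in the DMSO libraries. Within this sum, KRT8 was lower, at 1175 and 2743 FPKM in the resistant libraries, against 5187 and 5157 FPKM in the DMSO libraries. The groups overlapped for EPCAM, CDH1, KRT19 and NKX2-1.

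**Figure D4:**
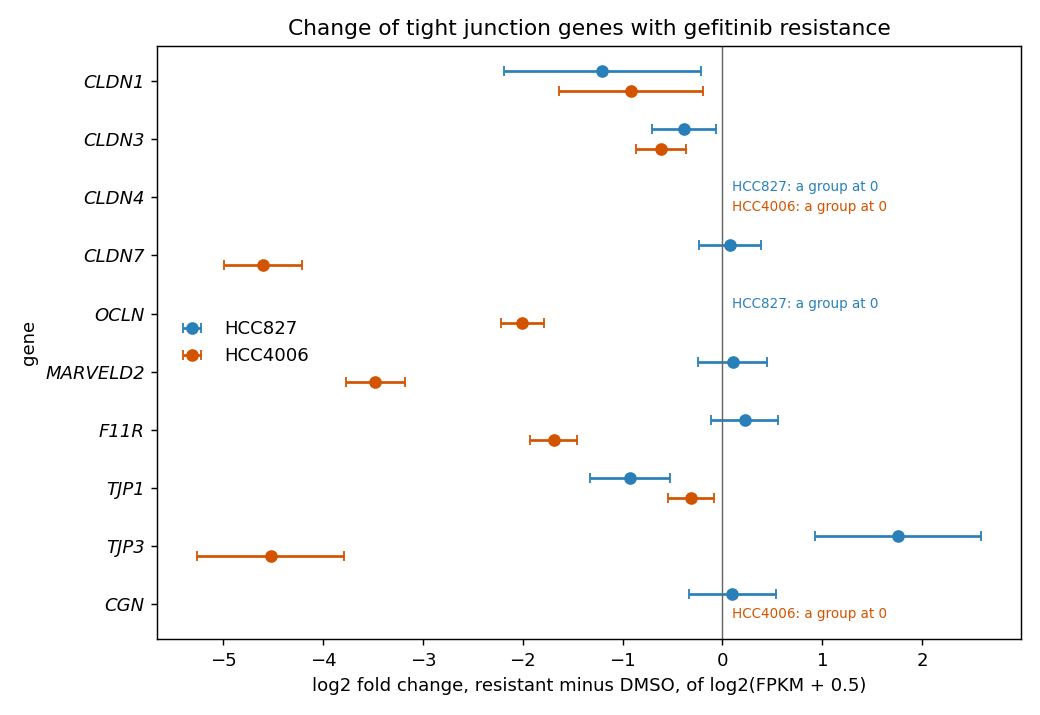
Log2 fold change of each gene, resistant minus DMSO, on the log2(FPKM + 0.5) scale, with bars of ± 1 SE from the limma fit of each line. HCC827 points of CLDN7, TJP3 and MARVELD2 lie at 0.07, 1.76 and 0.10, and the HCC4006 points of the same genes at −4.60, −4.53 and −3.48.

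The difference between the lines was fitted over all 8 libraries, as the HCC827 change minus the HCC4006 change, so that positive values mean a more positive change in HCC827. It was 4.67 for CLDN7 (SE 0.50, adjusted p = 0.00167), with changes of 0.07 in HCC827 and −4.60 in HCC4006. For MARVELD2 it was 3.58 (SE 0.46, adjusted p = 0.00378), with changes of 0.10 in HCC827 and −3.48 in HCC4006. These passed in the fit over rows above 0 as well (adjusted p = 0.00815 for CLDN7 and 0.0252 for MARVELD2), and without each library in turn. For TJP3 it was 6.28 (SE 1.28, adjusted p = 0.0267), and over rows above 0 the adjusted p = 0.0462. For F11R it was 1.91 (SE 0.39, adjusted p = 0.0279), but over rows above 0 the adjusted p = 0.0781. CLDN1 (−0.29, SE 1.42, adjusted p = 0.926), CLDN3 (0.23, SE 0.39, adjusted p = 0.748) and TJP1 (−0.61, SE 0.48, adjusted p = 0.481) did not pass.

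Of the 10 genes, 7 were called, where 12.1% of 20685 rows were. Of the 7 genes with no group at 0, 4 were called, all with a more positive change in HCC827, the direction called in 6.27% of rows. Over rows above 0 in every library it was 3 of 7, where 0.97% of 14642 rows were called in that direction and 1.45% in either. CLDN4, OCLN and CGN were called as well, in the other direction, but each has a group listed at 0, and 5.82% of rows were called in that direction. The difference for F11R was lost without HCC827 DMSO library A (adjusted p = 0.0802) or B (0.0989), HCC4006 DMSO A (0.0707), or HCC4006 resistant A (0.124) or B (0.119). That for TJP3 was lost without HCC827 DMSO B (adjusted p = 0.0669), HCC827 resistant A (0.0994) or B (0.0955), HCC4006 DMSO A (0.0856), or HCC4006 resistant A (0.119) or B (0.156).

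By level, F11R and CLDN7 led the 10 genes in both DMSO groups, and their ranges overlapped in each line. In HCC827 DMSO, CLDN7 averaged 981 ± 231 and F11R 957 ± 41.6 FPKM, followed by CGN at 433 ± 80.3 and OCLN at 294 ± 19.4 FPKM (SD, n = 2). In HCC4006 DMSO, F11R averaged 1899 ± 397 and CLDN7 1751 ± 694 FPKM, followed by CLDN1 at 431 ± 353 and TJP1 at 333 ± 46.7 FPKM, whose ranges overlapped. In resistant HCC827, F11R at 1140.5 ± 336 and CLDN7 at 1016 ± 5.66 FPKM stayed the highest. In resistant HCC4006, F11R at 582 ± 6.82 FPKM led. TJP1 at 267 ± 35.4 and CLDN4 at 253 ± 43.8 FPKM followed, with overlapping ranges. CLDN7 averaged 69.8 ± 16.97 FPKM there. The F11R and CLDN4 rows each also name another gene, so their levels cannot be assigned to F11R or CLDN4 alone. TJP3 had the lowest mean above 0 in resistant HCC4006 (3.05 ± 1.28 FPKM), in HCC827 DMSO (22.3 ± 21.3 FPKM) and in resistant HCC827 (58.5 ± 15.7 FPKM), there beside CLDN1 (59.3 ± 61.9 FPKM). In HCC4006 DMSO that was CLDN3 at 80.5 ± 17.5 FPKM, within the range of TJP3.

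A wider list of 44 further tight junction genes held other claudins, angulins, MARVEL and adhesion genes, scaffolds and polarity genes. All 44 were found, and 7 claudin genes among them were listed at 0 in all 8 libraries. In HCC4006, 35 passed the filter on low values and 27 had no group at 0. Of these 27, 0 were called higher and 2 lower, CRB3 and PATJ, with a median of −0.30, where 2.98% of all rows fitted were called lower and 6.37% higher. CRB3, an apical polarity gene, measured 6.88 and 5.69 FPKM in the resistant libraries, against 164 and 111 FPKM in the DMSO libraries, a change of −4.32 (SE 0.30, adjusted p = 0.00448). PATJ, listed under its older name INADL, encodes a scaffold that binds ZO-3 and claudin 1. It measured 21.3 and 23.3 FPKM in the resistant libraries, against 107 and 91.5 FPKM in the DMSO libraries, a change of −2.13 (SE 0.22, adjusted p = 0.0136). PATJ was not called over rows above 0 (adjusted p = 0.0729), where CRB3 was (0.0378). That fit called 1 of 26 of the list lower, where 0.431% of its rows were called lower. Another 7 were called with a group at 0. CLDN11, CLDN12, CXADR and MAGI1 were at 0 in DMSO, and CLDN9, MARVELD3 and ILDR1 were at 0 in the resistant libraries. The CLDN12 row also names AC006153.3, CDK14 and GTPBP10, and the MAGI1 row also names RP11-175F9.3. Neither signal can be assigned to 1 gene.

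In HCC827, 30 of the wider list passed the filter and 29 had no group at 0, with a median of −0.09. The call among these was ILDR1, an angulin that brings tricellulin to 3-cell contacts, higher at 37.7 and 28.8 FPKM in the resistant libraries, against 1.96 and 0 FPKM in the DMSO libraries (change 4.92, SE 0.87, adjusted p = 0.0484). It was named after its values were seen. PRKCZ, a polarity kinase gene, was called with both DMSO libraries at 0. In HCC827, 1.67% of all rows fitted were called lower and 5.13% higher. The fit over rows above 0 called 0 of 28, where 0.119% of its rows were called. It had 4 of the 28 at an unadjusted p below 0.05 in limma, as had 2033 of its 15917 rows. Between the lines, 3 of the 24 with no group at 0 differed, all with a more positive change in HCC827. Of all rows fitted, 12.1% differed, 6.27% in that direction. Those rows include ones with a group at 0. CRB3 differed by 4.83 (SE 0.41, adjusted p = 0.000509), PATJ by 2.04 (SE 0.34, adjusted p = 0.0125), and LSR, the angulin gene, by 1.68 (SE 0.36, adjusted p = 0.031). LSR measured 681 and 658 FPKM in resistant HCC827, against 530.5 and 360 FPKM in its DMSO libraries. It measured 390.1 and 404 FPKM in resistant HCC4006, against 749 and 926 FPKM in its DMSO libraries. Over rows above 0, CRB3 alone of these passed (adjusted p = 0.00555), 1 of 24. In that fit, 0.97% of all rows were called with a more positive change in HCC827, and 1.45% in either direction. LSR and the genes of this list with a group at 0 were named after their values were seen.

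**Figure D5:**
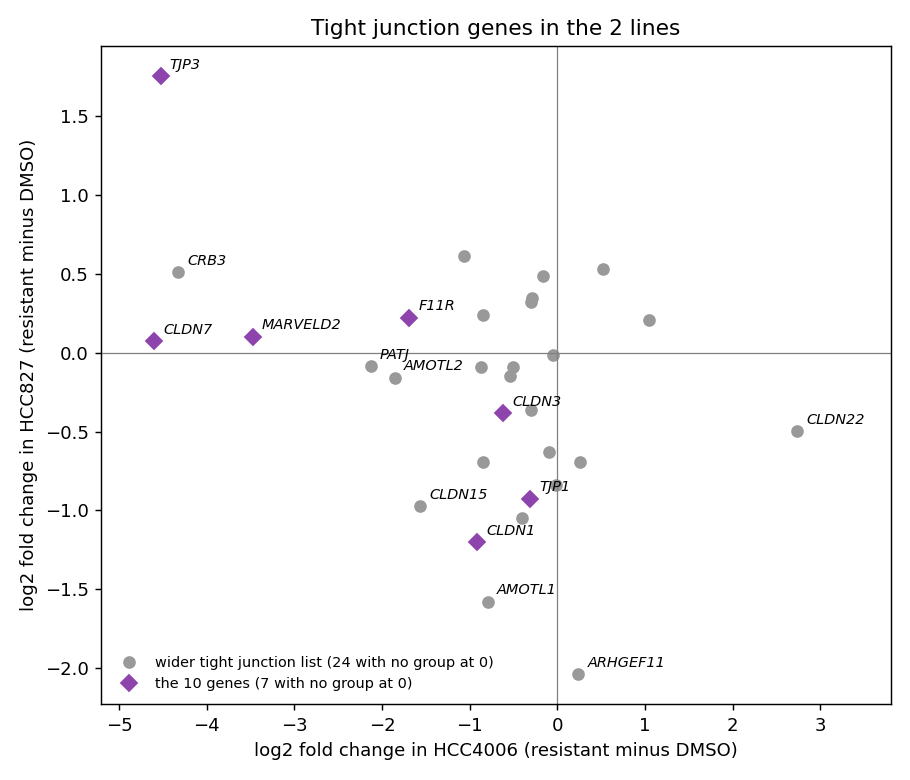
Log2 fold change in HCC4006 (horizontal) against that in HCC827 (vertical) for the 7 genes (purple) and the 24 of the wider list (grey) with no group at 0. These 7 genes are named, as are genes of the wider list with a change over 1.5 in size in either line. TJP3, CLDN7, CRB3 and MARVELD2 lie far left, near or above the HCC827 zero line.

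The gene with the highest mean among those above 0 everywhere was F11R. Over 12813 rows, the patterns most like it, by Pearson correlation of log2(FPKM + 0.5) centred within each line over 8 libraries, were GSTZ1 (r = 0.989), AC011479.1 (0.988), PLA2G16 (0.985), RP11-133M8.1 (0.982) and PTK6 (0.982). For CLDN7, chosen after its values were seen, they were SNX1 (0.993), the cadherin genes CDH1 (0.993) and CDH3 (0.993), INADL (0.992) and DGKA (0.990). A high correlation does not mean a like size of change. The log2 change in HCC4006 was −0.68 for SNX1 and −8.36 for CDH1, against −4.60 for CLDN7. Among the genes above 0 in all 8 libraries, CLDN7 and MARVELD2 were the most alike (0.980), and TJP1 and TJP3 the least alike (−0.18). These libraries share groups and tables, and the values are descriptions.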

How the data were processed

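Gene-level FPKM of 8 libraries were used as the authors deposited them, in 1 table per line. Per the submitters' processing notes, the tools were Cufflinks 1.3.0, TopHat 1.4.1 and Cuffdiff and the build was hg19. The library kit named in the labels does not mark strand. Annotation and options: not given in the sources used here. Column letters A and B could not be tied to the labels' replicate numbers and only name libraries. Rows sharing a locus or joining names are uncertain.

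From the tables, log2(FPKM + 0.5) was fitted in limma 3.58.1 (R 4.3.3; lmFit, then eBayes with trend) where a row averaged 0.5 FPKM or more. Each line was fitted alone, and the difference between lines over all 8 libraries. P-values were adjusted by Benjamini-Hochberg over all rows of a fit and called below 0.05. The code was tested on simulated data. List genes were taken from rows on their own chromosome in RefSeq, which left out KRT18, and PECAM1 was not matched. Another immune marker is not reported here. Promoter windows came from RefSeq (GRCh38.p14) and were searched with Python 3.11.15. All 10 genes are named, with called genes of the wider list that lay above 0 in all 4 libraries of a line and the 5 rows most like the highest gene. The genes and lists were chosen with earlier results of these data known. Alternatives were other pseudocounts, filters, scalings and blocks, a joint fit and leaving out libraries.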

Additional observations from a re-analysis of the deposited data

Results flagged for a closer look

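Of the 7 genes with no group at 0, 4 changed differently between the lines by a test of the difference itself. The test was the HCC827 change minus the HCC4006 change in limma over all 8 libraries. All 4 had a more positive change in HCC827, the direction called in 6.27% of 20685 rows. The difference was 4.67 for CLDN7 (adjusted p = 0.00167), 3.58 for MARVELD2 (adjusted p = 0.00378), 1.91 for F11R (adjusted p = 0.0279) and 6.28 for TJP3 (adjusted p = 0.0267) on the log2 scale. For CLDN7, MARVELD2 and F11R, both resistant HCC4006 libraries lay below both HCC4006 DMSO libraries while the HCC827 groups overlapped. For TJP3, both resistant libraries were higher than both DMSO libraries in HCC827 and lower than both in HCC4006. The TJP3 libraries varied most within HCC4006 DMSO, at 147 and 42.1 FPKM, and within HCC827 DMSO, at 37.4 and 7.25 FPKM. In the limma fit over rows above 0 in every library, F11R was not called (adjusted p = 0.0781). The calls of F11R and TJP3 were also lost in most of the fits with 1 library removed.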

How the results depend on the processing

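Limits come first from the rows listed at 0. Over rows above 0 in every library, 2 of the 10 genes were called in HCC4006 in place of 7, 0 in HCC827 (1 at an unadjusted p below 0.05) in place of 1, and 3 differed between the lines in place of 7. Over all genes the counts were 88 in place of 1860, 19 in place of 1314 and 212 in place of 2501. Leaving out libraries gave 2 to 5 of the 10 genes in HCC4006, 0 to 1 in HCC827 and 5 to 7 between the lines, and 1394 to 3565, 0 to 1520 and 1666 to 3857 over all genes. The counts of 3565 and 3857 came without HCC4006 DMSO library B, and 1520 without HCC827 resistant library B. The 0 calls in HCC827 came without DMSO library A (2768 genes at an unadjusted p below 0.05 in limma) or B (2574), where the 4-library fit called 1314. The cause was not tested. Of single values, 8 turned sign in HCC827, 1 in HCC4006 and 3 in the difference between lines, none of them of a called value. In HCC827, CLDN7 turned to −0.001 with quantile normalization. Without single libraries, it ranged over −0.17 to 0.31, MARVELD2 over −0.18 to 0.39, CGN over −0.39 to 0.59, F11R over −0.082 to 0.53 and CLDN1 over −2.55 to 0.14. In HCC4006, CLDN1 ranged over −1.87 to 0.041, and its difference between lines over −1.63 to 1.06. Quantile normalization moved the median change of all genes to −0.19 in HCC4006 and −0.24 in HCC827, against −0.01 and −0.04. With a replicate block by column letter, 5 of the 10 genes were called in HCC4006, without OCLN (adjusted p = 0.0533) and F11R (0.0745), 1 in HCC827, and 6 between the lines, without F11R (0.0896). Over all genes the block gave 1400, 1485 and 1687 calls. The A minus B differences of the resistant and DMSO groups correlated at −0.08 in HCC4006 and 0.20 in HCC827 across genes, and 2 pairs a line cannot show whether the letters mark pairs. TJP3 in HCC4006 was not called with a pseudocount of 0.1 (adjusted p = 0.05) or with no filter on low values (0.0575). Each gene had 1 row, so no other row could be tried.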
